A study of Mus musculus with 6 samples.

Results

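The genes described here are 8 markers of the passage from late epiblast to neurectoderm. They are *Sox1*, *Sox3*, *Pax6*, *Zic2*, *Zic5*, *Pou3f1*, *Six3* and *Nes*, chosen by symbol, and all 8 were among the 15266 genes listed for these libraries. The label calls them transcription factors, which fits 7 of them, whereas *Nes* encodes nestin, a cytoplasmic intermediate filament protein. mRNA-seq was performed on embryoid bodies (EBs), the free-floating aggregates that embryonic stem cells form when they differentiate. All EBs came from W9.5 mouse embryonic stem cells (mESCs) grown for 4 days (D4) in serum without LIF, the cytokine that holds mESCs undifferentiated. Of the 2 lines, EVX1-Δfs (clone 14) carries small frameshifts on both alleles of *Evx1*, in the part that encodes the homeodomain, and still transcribes *Evx1* and its antisense lncRNA *Evx1as*. Del#3 carries a 2.6 kb deletion (Evx1/Evx1asΔ2.6kb) that takes away the promoters of both transcripts. Functional EVX1 is thus predicted to be lost in both lines, and the comparison asks what the further loss of *Evx1as* changes. Each line had 3 replicates, set up side by side on 3 different days. The replicate numbers in the titles were taken to mark these days, which the labels do not state. EVX1-Δfs is a single clone, the number of clones behind Del#3 is not given in the sources used here, and WT EBs were not analysed here.

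When gastrulation begins, the epiblast either passes through the primitive streak to become mesoderm and endoderm or, on its anterior side, becomes neurectoderm. Inhibition of BMP and Nodal signalling favours the neural outcome, while BMP4 in serum opposes it. *Pou3f1* (OCT6), *Zic2*, *Zic5* and *Sox3* are already transcribed in the late epiblast and remain on in early neural plate. *Sox1* is the classical marker of committed neurectoderm, and *Pax6* and *Six3* mark later neural progenitors and the anterior neural plate and eye field. *Nes* is best known in neural progenitors but is also expressed by other dividing embryonic cells.

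Between 9024579 and 15699124 reads fell on listed genes in the EVX1-Δfs libraries and between 9729013 and 12231851 in those of Del#3. These reads were recovered from the deposited values, which are counts divided by 1 size factor per library (normalized counts). *Evx1* had 2582 to 4023 reads per EVX1-Δfs library and 28 to 48 per Del#3 library, and *Evx1as* (5730457N03Rik) had 571 to 879 and 21 to 30, as the labels of both lines state. All 14 genes of the primitive streak and mesoderm list and all 20 of the late epiblast list passed the low-count filter, and among them *T* (Brachyury) was at 107 RPM (reads per 1000000 reads on listed genes) and *Pou5f1* (OCT4) at 615 RPM, as means of the 6 libraries. These are bulk libraries, so fewer cells of a type and less RNA per cell cannot be told apart.

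The 8 genes were read as 2 levels, split between *Zic5* and *Pax6*, although this was not the only gap between neighbours. Scaled to transcript length (RPKM, RPM per kilobase of transcript), *Zic2* was highest with 31.1 ± 5.97 RPKM (SD, n = 6). *Nes* followed with 27.6 ± 4.10 RPKM, *Pou3f1* with 11.7 ± 3.24 RPKM, *Sox3* with 5.05 ± 1.77 RPKM and *Zic5* with 1.88 ± 0.558 RPKM (SD, n = 6 for each). The remaining members were near 0, with 0.0737 ± 0.0283 RPKM for *Pax6*, 0.0718 ± 0.0913 for *Sox1* and 0.0288 ± 0.0451 for *Six3*. The lowest value of *Zic5* in any library was 1.27 RPKM and the highest value among the last 3 genes was 0.253 RPKM. Among neighbours in this order, the ranges over the 6 libraries overlapped for *Zic2* and *Nes*, for *Pou3f1* and *Sox3*, for *Pax6* and *Sox1*, and for *Sox1* and *Six3*. They lay apart for *Nes* and *Pou3f1*, for *Sox3* and *Zic5*, and for *Zic5* and *Pax6*. Although the ranges of *Pou3f1* and *Sox3* overlapped, *Pou3f1* was higher within each of the 6 libraries. *Zic2*, *Pou3f1*, *Sox3* and *Zic5*, already transcribed in the late epiblast, were present at D4, and so was *Nes*, best known in neural progenitors. *Pax6*, *Sox1* and *Six3*, which mark neurectoderm proper or its later derivatives, had few reads in either line.

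**Figure D1:**
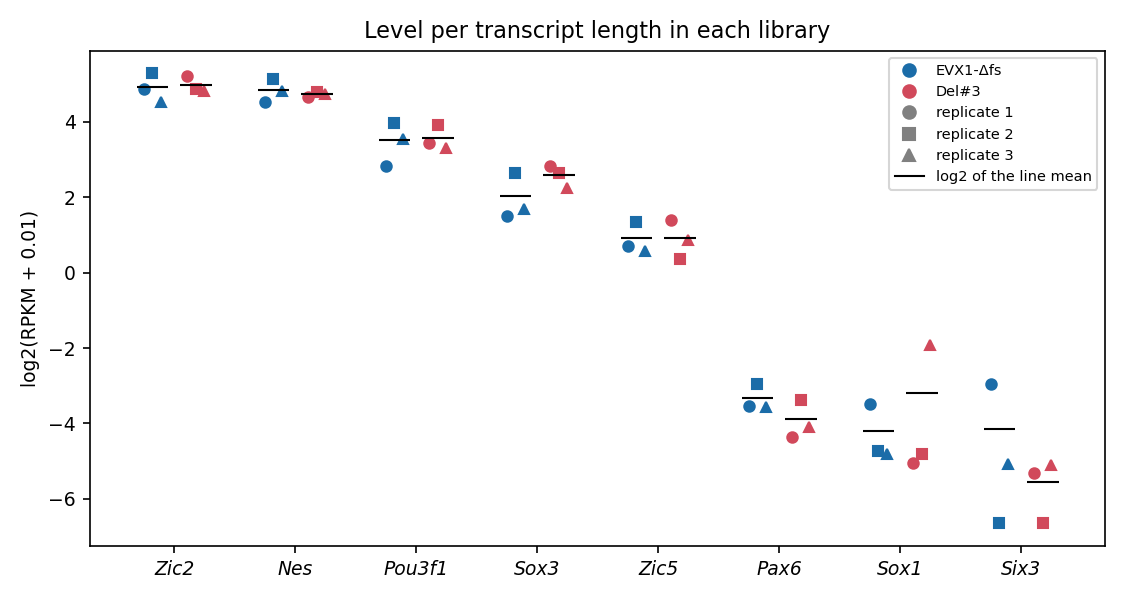
RPKM of the 8 genes in each library, plotted as log2(RPKM + 0.01), with colours for the lines, symbols for the replicates and a bar at the log2 of each line's mean. *Zic2*, *Nes*, *Pou3f1*, *Sox3* and *Zic5* sit above 1.27 RPKM in all 6 libraries, and *Pax6*, *Sox1* and *Six3* sit at or below 0.253 RPKM.

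Upstream sequences of 4 members are shown from both levels, namely *Sox1* and *Six3*, which were near 0, and *Zic5* and *Nes*, which were transcribed. Each is the 250 bases before the transcription start in RefSeq, written 5′ to 3′ on the strand of the gene, with each CpG dinucleotide in capitals. RefSeq's table (GRCm38.p6) held a promoter for 5 of the 8 members, and each sequence was placed on NCBIM37, the assembly also called mm9, by its 1 exact match. *Sox1* is at chr8:12395269-12395518 (plus strand), *Six3* at chr17:86019924-86020173 (plus), *Zic5* at chr14:122864881-122865130 (minus) and *Nes* at chr3:87774765-87775014 (plus).
Sox1: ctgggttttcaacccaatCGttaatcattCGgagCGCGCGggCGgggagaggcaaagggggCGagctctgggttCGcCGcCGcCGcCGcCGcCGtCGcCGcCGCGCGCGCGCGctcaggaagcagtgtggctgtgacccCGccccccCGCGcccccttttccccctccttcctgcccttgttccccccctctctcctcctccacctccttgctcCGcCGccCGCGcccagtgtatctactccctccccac
Six3: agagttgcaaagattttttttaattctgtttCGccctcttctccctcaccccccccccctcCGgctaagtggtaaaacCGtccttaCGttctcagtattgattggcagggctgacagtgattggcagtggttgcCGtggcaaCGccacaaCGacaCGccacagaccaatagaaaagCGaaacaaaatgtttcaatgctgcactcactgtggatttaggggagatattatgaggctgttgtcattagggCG
Zic5: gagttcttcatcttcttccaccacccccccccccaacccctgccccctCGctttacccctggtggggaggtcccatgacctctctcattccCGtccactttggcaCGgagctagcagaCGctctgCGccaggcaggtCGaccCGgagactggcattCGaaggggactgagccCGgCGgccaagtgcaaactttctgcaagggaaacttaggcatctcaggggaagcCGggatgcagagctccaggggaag
Nes: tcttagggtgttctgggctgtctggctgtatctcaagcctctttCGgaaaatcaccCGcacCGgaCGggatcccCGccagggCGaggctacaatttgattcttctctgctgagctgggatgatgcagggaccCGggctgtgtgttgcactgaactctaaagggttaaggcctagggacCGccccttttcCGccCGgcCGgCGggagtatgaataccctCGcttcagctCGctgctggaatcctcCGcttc
The *Sox1* sequence held 29 CpG and was 71.2% GC. *Six3* held 10, *Zic5* 11 and *Nes* 15, and each of the 2 *Pax6* promoters held 15, against a median of 6 over all 32851 promoters of that table. All 6 were thus above the median, and the gene with the most CpG in this window was among those with the fewest reads. Recognition motifs of the kinds of factor described here were searched on both strands, where the end of the SOX motif can overlap the start of the octamer. None of the 6 windows held the homeodomain core TAATTA, which 4.84% of all promoters held, the SOX motif ACAATG (10.7%), the POU octamer ATGCAAAT (1.60%) or the ZIC motif CAGCAGG (8.44%). This says only that these letters are not in these windows.

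*Sox3* and *Sox1* belong to the SOXB1 group with *Sox2*, HMG-box activators that hold neural progenitors undifferentiated. *Sox3*, a gene of 1 exon on chromosome X (NCBIM37, 58144545 to 58146605, minus strand), showed the largest difference between the lines among the 5 members that passed the low-count filter. The EVX1-Δfs libraries 1 to 3 had 60.1, 136 and 74.4 normalized counts of *Sox3*, against 143, 145 and 101 in the Del#3 libraries in the same order. EVX1-Δfs replicates 1 and 3 were below all Del#3 libraries, but EVX1-Δfs replicate 2 was above Del#3 replicate 3, so the lines overlapped. On the scale of log2(normalized count + 1), *Sox3* was 0.59 higher in Del#3 (standard error 0.37, 95% confidence interval -0.22 to 1.40), and the difference did not pass the test (limma, adjusted p = 1.00). It was 0.35 without EVX1-Δfs replicate 1 and 0.93 without EVX1-Δfs replicate 2, so single libraries moved it by more than 1.5 times. Within same-numbered pairs the difference was 1.24, 0.094 and 0.44, all towards Del#3. Of all genes tested, 12.1% shared this direction in their 3 pairs. With the replicate number in the model the interval was -0.041 to 1.23, with an unadjusted p of 0.0634 and an adjusted p of 0.992.

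For *Sox1*, the EVX1-Δfs libraries held 5, 1 and 1 reads and the Del#3 libraries 1, 1 and 10, in the order of the replicates. A single library of each line held most of its reads, namely EVX1-Δfs replicate 1 and Del#3 replicate 3. Summed over a line, 7 reads of 34269869 in EVX1-Δfs (exact 95% Poisson interval 2.81 to 14.4) stood against 12 of 31763792 in Del#3 (6.20 to 21.0). These intervals cover counting error only. *Sox1* did not pass the low-count filter, and its normalized counts gave p = 1 in a two-sided exact permutation test, in which 3 libraries against 3 cannot go below 0.1.

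*Zic2* and *Zic5* encode zinc finger factors of the ZIC family and lie head to head on chromosome 14, with 9705 bases between their annotated starts. *Zic2* (NCBIM37, 122874604 to 122879074, plus strand), which is needed for forebrain and neural tube formation, had 797, 1082 and 685 normalized counts in EVX1-Δfs and 949, 865 and 771 in Del#3. The highest and the lowest library were both of EVX1-Δfs, and all Del#3 libraries lay between them. The difference was 0.033 on the log2 scale (standard error 0.25, interval -0.51 to 0.58, limma adjusted p = 1.00). *Zic5* (122856017 to 122864899, minus strand) had 80.5, 127 and 79.2 normalized counts in EVX1-Δfs and 122, 68.5 and 89.7 in Del#3. Its highest library was of EVX1-Δfs and its lowest of Del#3, both of replicate 2. Its log2 difference was -0.035 (standard error 0.35, interval -0.80 to 0.73, limma adjusted p = 1.00), and within pairs it was 0.59, -0.88 and 0.18, so the pairs did not share a direction. Per transcript length, *Zic2* was 15.6 to 18.0 times *Zic5* in the EVX1-Δfs libraries and 14.2 to 23.0 times in the Del#3 libraries.

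*Pou3f1* encodes a POU homeodomain factor that is induced as the epiblast is primed and that promotes neural fate. On chromosome 4 (NCBIM37, 124334896 to 124337899, plus strand), it had 222, 498 and 398 normalized counts in EVX1-Δfs and 320, 514 and 309 in Del#3. Replicate 2 was the highest library of both lines. The log2 difference between the lines was 0.068 (standard error 0.34, interval -0.70 to 0.83, limma adjusted p = 1.00).

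*Nes* (chromosome 3 of NCBIM37, 87775000 to 87784373, plus strand) had the most reads of the members. It had 1460, 2275 and 1954 normalized counts in EVX1-Δfs and 1509, 1899 and 1718 in Del#3, and all Del#3 values lay within the range of EVX1-Δfs. Replicate 1 was the lowest and replicate 2 the highest library in both lines. The log2 difference was -0.13 (standard error 0.24, interval -0.67 to 0.40, limma adjusted p = 1.00).

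*Pax6*, a paired-box factor of neural progenitors and the eye, had 10, 9 and 6 reads in EVX1-Δfs and 4, 7 and 4 in Del#3. The lines overlapped between 6 and 7 reads. Within same-numbered pairs *Pax6* was lower in Del#3 each time, with differences of -0.86, -0.34 and -0.62 on the log2 scale, a direction that 11% of all genes tested shared in their 3 pairs. *Pax6* had 25 reads in all in EVX1-Δfs (exact 95% Poisson interval 16.2 to 36.9) and 15 in Del#3 (8.40 to 24.7). It did not pass the low-count filter, and the two-sided exact permutation test gave p = 0.3. *Pax6* overlaps *Elp4* on the other strand, and HTSeq's standard settings count by strand. *Six3*, a homeodomain factor of the anterior neural plate and eye field, had 10, 0 and 1 reads in EVX1-Δfs and 1, 0 and 1 in Del#3. All but 3 of its 13 reads thus came from EVX1-Δfs replicate 1, which was also the deepest library, with 15699124 reads on listed genes. For *Six3* the exact permutation test gave p = 0.5. Its antisense neighbour *Six3os1*, which overlaps it, had 22, 7 and 9 reads in EVX1-Δfs and 9, 8 and 10 in Del#3, and was again highest in EVX1-Δfs replicate 1.

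Of the 8 genes, 5 passed the low-count filter, and 0 of these 5 passed an adjusted p-value of 0.05 by limma, where 0.0155% of all 12891 genes tested did (*Evx1* and *Evx1as*), and 0 of 5 with the replicate number in the model, where 0.0233% did. Of the 5, 0 had an unadjusted p-value under 0.05 without the replicate number (1.03% of all genes tested) or with it (4.62%), and edgeR's quasi-likelihood test and DESeq2's Wald test on the recovered reads also called 0. Without the filter 0 of the 8 passed, and *Sox1*, *Pax6* and *Six3* had log2 differences of 0.38 (95% confidence interval -1.42 to 2.19), -0.61 (-1.82 to 0.61) and -0.72 (-2.63 to 1.19) with unadjusted p-values of 0.648, 0.296 and 0.425 (limma adjusted p = 1.00 for each). For all 8 the 2 lines overlapped, whereas 3.51% of all genes tested did not overlap, 1.71% with Del#3 higher and 1.8% with Del#3 lower. The 95% confidence interval lay within a doubling or a halving for *Zic2*, *Zic5*, *Pou3f1* and *Nes*, as it did for 61.1% of all genes tested (76.2% with the replicate number in the model). For *Sox3* it reached 1.40 on the log2 scale, so a difference of more than 1 was not excluded by these libraries. The median log2 difference was 0.033 over the 5 genes and 0.0022 over all genes tested.

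**Figure D2:**
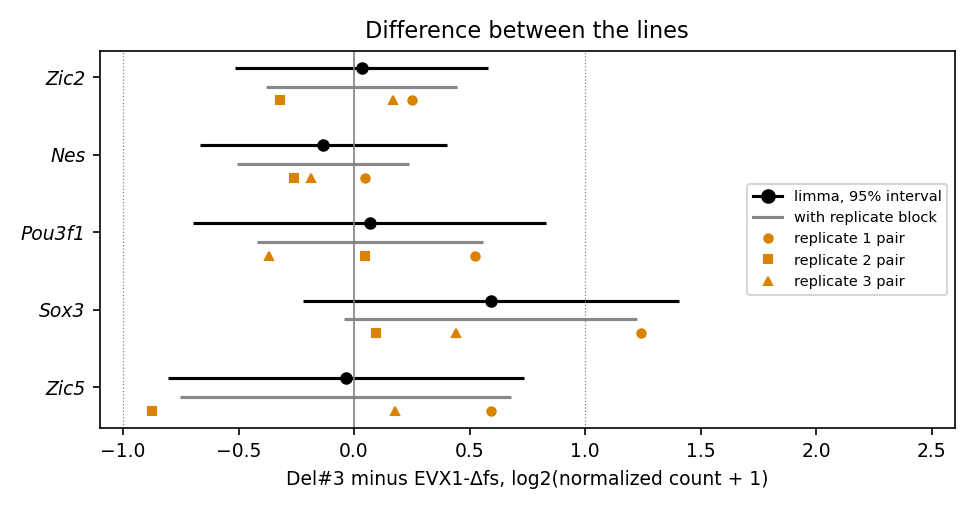
Difference between Del#3 and EVX1-Δfs on the log2(normalized count + 1) scale for the 5 genes that passed the low-count filter, with the limma estimate and 95% interval in black, the interval with the replicate number in the model in grey and the 3 same-numbered pairs as orange symbols. All intervals cross 0, and the interval of *Sox3* is the only 1 that passes the dotted line at 1.

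The spread of the 5 genes was divided between the replicate day (the replicate number, taken to mark the day) and the line. The day has 2 degrees of freedom and the line 1, so on average the day takes the larger share even where neither has an effect. Across genes, the deviations of same-numbered libraries from their line means correlated by 0.74 and 0.32 for replicates 1 and 2, but by -0.053 for replicate 3. As a share of the sum of squares of its log2 values, the day took 82.1% for *Nes*, 80.6% for *Pou3f1* and 63.9% for *Zic2*, and the line 9.04%, 0.659% and 0.606%. The median over all genes tested was 64.4% for the day and 6.70% for the line. In *Sox3* the day took 38.8% and the line 36.9%, so per degree of freedom the line took more. In *Zic5* the day took 8.66% and the line 0.291%, so that 91.0% lay in neither. *Sox3*, *Zic2*, *Pou3f1* and *Nes* had their highest day mean on the day of replicate 2, as did 34.8% of all genes tested, while *Zic5* had it on that of replicate 1. The day means spanned 0.92 for *Pou3f1*, 0.69 for *Sox3*, 0.49 for *Nes*, 0.41 for *Zic2* and 0.23 for *Zic5*, where the median span of all genes tested was 0.58 on the log2 scale. In limma's F test between the 3 days, 0 of the 5 genes passed after adjustment, where 4.24% of all genes tested did. The smallest adjusted p-value was 0.125, for *Pou3f1*, whose unadjusted p-value was 0.0218. It was also the only 1 of the 5 with an unadjusted p-value under 0.05, against 27.7% of all genes tested. edgeR's quasi-likelihood F test called 0 of the 5 as well, and 461 of all genes where limma called 546. For *Pou3f1* the call changed with single libraries, since its adjusted p-value was 0.0206 without EVX1-Δfs replicate 3 and 0.0199 without Del#3 replicate 3, and it ranged from 0.0199 to 0.742 over all alternatives. With the same libraries left out, the calls over all genes rose from 546 to 2401 and 3175, while they fell to 197 without EVX1-Δfs replicate 1, to 211 without Del#3 replicate 1 and to 334 with TMM factors.

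**Figure D3:**
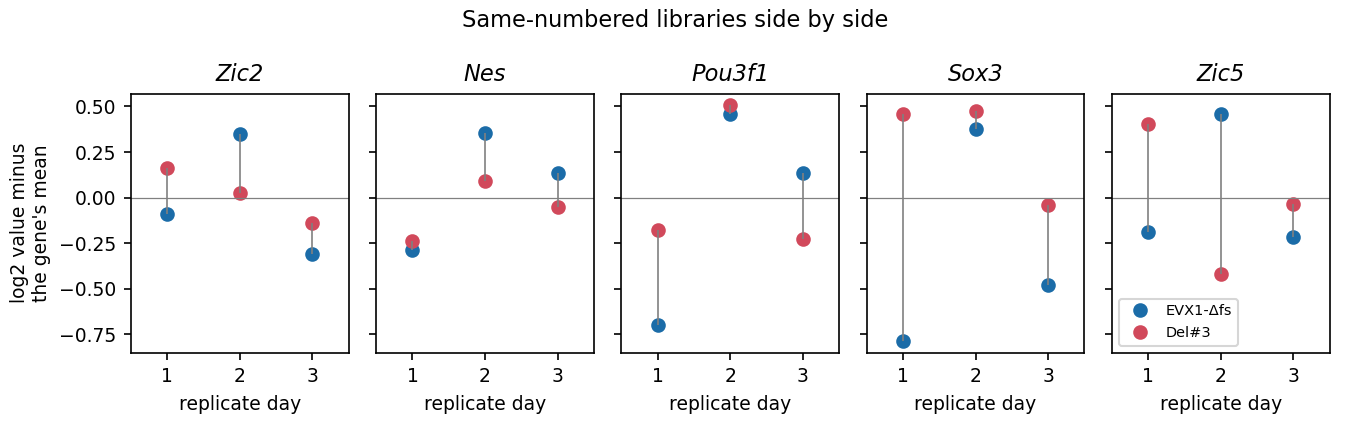
Log2 value of each library minus the mean of that gene over the 6 libraries, with 1 panel per gene, the replicate day on the horizontal axis, colours for the lines and a grey line joining the libraries of the same day. In *Pou3f1* and *Nes* both lines are highest on the day of replicate 2 and lowest in the day mean of replicate 1, and in *Zic5* the lines lie on opposite sides of the mean on the first and second day.

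The 5 genes did not vary as a single block over the 6 libraries. *Nes* and *Pou3f1* were most alike (Pearson's r = 0.86, n = 6 libraries), followed by *Zic5* and *Zic2* (0.73), *Zic2* and *Sox3* (0.71) and *Pou3f1* and *Sox3* (0.67). *Pou3f1* and *Zic5* were the least alike, with r = 0.047. These are descriptions over 6 libraries that share size factors and come in 3 same-numbered pairs. Among all other genes tested, the 3 whose log2 values were most like the mean profile of the 5 genes were *4930513N10Rik* (r = 0.996), *Bhlhe41* (0.993) and *Ddx55* (0.987), where n = 6 libraries. A search over so many genes with 6 libraries is bound to find high r, so no conclusion is drawn from these values. Their normalized counts ranged from 24.4 to 42.2 for *4930513N10Rik*, from 23.1 to 82.0 for *Bhlhe41*, a transcriptional repressor of the circadian clock, and from 354 to 410 for *Ddx55*, an RNA helicase.

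Relatives of the members were also transcribed. *Sox2*, the SOXB1 gene shared by pluripotent cells and neural progenitors, had 691, 1328 and 1020 normalized counts in EVX1-Δfs and 845, 1123 and 623 in Del#3, with a log2 difference of -0.22 (standard error 0.31, limma adjusted p = 1.00). Per transcript length, *Sox2* was 9.65, 8.19 and 11.5 times *Sox3* in the EVX1-Δfs libraries and 4.94, 6.49 and 5.15 times in the Del#3 libraries. All Del#3 libraries thus had a lower ratio of *Sox2* to *Sox3* than all EVX1-Δfs libraries, with 9.78 ± 1.65 (SD, n = 3) against 5.53 ± 0.841 (SD, n = 3). The two-sided exact permutation test of the log2 ratios gave p = 0.1, the smallest that 3 against 3 allow, and 0.3 when adjusted over the 3 ratios between related genes that were computed. The log2 difference was -0.97, -0.34 and -1.16 within same-numbered pairs. The ratio was computed with the levels of the members known and does not depend on size factors. *Vim*, which encodes the filament protein vimentin that nestin assembles with, was at 627 RPM over the 6 libraries, and *Nes* at 169 RPM. Of 26 other genes from the gene families of the members, 15 were tested, with a median log2 difference of -0.0099. Of these, 0 were called by limma in either direction without or with the replicate number (0.0155% and 0.0233% of all genes tested).

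**Figure D4:**
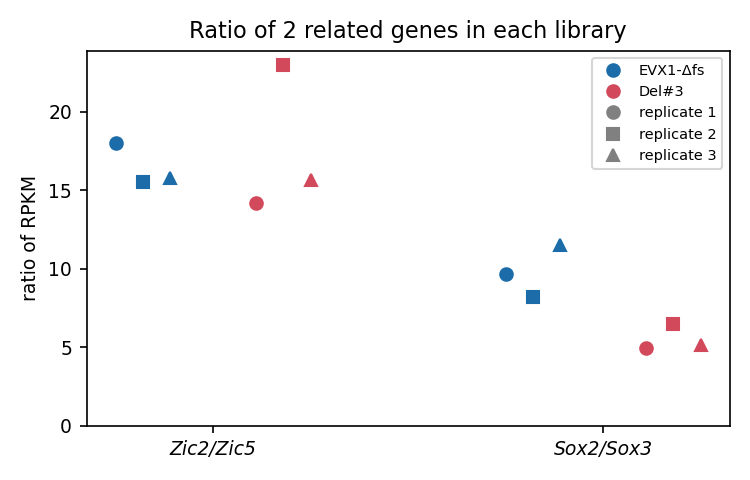
Ratio of RPKM between related genes in each of the 6 libraries, with colours for the lines and symbols for the replicates. The ratio of *Sox2* to *Sox3* is 8.19 to 11.5 in EVX1-Δfs and 4.94 to 6.49 in Del#3, and the ratio of *Zic2* to *Zic5* overlaps between the lines.

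Other genes of neurectoderm and neural progenitors differed widely in level. Of the 36 in the list, 27 had a row in the table and 18 passed the low-count filter. Those with the most reads were *Cdh2* (N-cadherin, 125 RPM over the 6 libraries), *Sox2* (88.0 RPM) and *Sox11* (70.0 RPM), an SOXC gene of newly formed neurons that other embryonic tissues also transcribe. *Cdh2* differed by -0.14 (standard error 0.31) and *Sox11* by -0.054 (standard error 0.30) on the log2 scale. The 9 genes that did not pass were *Hesx1*, *Lhx5*, *Rax*, *En2*, *Gbx2*, *Pax3*, *Zic1*, *Pou3f3* and *Hes5*, which include regional and committed neural genes. Other regional genes of the list passed it, among them *Otx2* (260.6 to 498.1 normalized counts over the 6 libraries), *Irx3* (102.8 to 181.6) and *Emx2* (58.1 to 207.4), which were named after their values were seen, so regional genes lay on both sides of the filter. In this list 0 genes were called in either direction by limma without or with the replicate number (0.0155% and 0.0233% of all genes tested). An unadjusted p-value under 0.05 was reached by 0, against 1.03% of all genes tested, and the median log2 difference was -0.084.

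All 20 late epiblast genes were tested and 0 were called between the lines, where 0.0155% of all genes tested were. Their median log2 difference was -0.059. Their most abundant genes were the de novo methyltransferase gene *Dnmt3b* (1125 RPM), *Cdh1* (E-cadherin, 679 RPM) and *Pou5f1* (615 RPM), which differed by 0.0088, -0.092 and -0.061 on the log2 scale. In the list of BMP antagonists, *Bmp4* and *Id* genes, which act on the choice of neural fate, all 13 genes were tested and 0 were called between the lines, with a median of 0.085. *Id3* (369 RPM) and *Id1* (297 RPM), targets of BMP signalling, and *Smad6* (161 RPM), its inhibitor, were the most abundant. *Id1* was the only 1 of these 13 called between the replicate days (limma's F test, adjusted p = 0.0477, span of the day means 1.04 on the log2 scale), against 4.24% of all genes tested.

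Lists for the other cell types that EBs can hold were read in the same way. Of the tested genes, 0 of 14 were called between the lines for primitive streak and mesoderm, 0 of 10 for endoderm, 0 of 12 for naive pluripotency, 0 of 8 for neurons and glia, 0 of 9 for neural crest and placode and 0 of 7 for caudal and neuromesodermal cells. These zeros held with the replicate number in the model. Over all genes tested 0.0155% were called, and 0.0233% with the replicate number, so 0 calls in lists this short say little. The most abundant of these genes were *Hand1* (324 RPM), *Eomes* (309) and *Kdr* (162) in mesoderm, *Cer1* (190), *Gata4* (78.4) and *Sox17* (64.2) in endoderm, *Tbx3* (149), *Nanog* (88.5) and *Zfp42* (28.2) among the naive genes, *Msx1* (240), *Msx2* (59.7) and *Tfap2c* (17.4) for crest and placode, and *Cdx2* (56.5), *Wnt8a* (17.0) and *Nkx1-2* (6.68) for caudal cells. The naive list had the lowest median of all lists, -0.38, and the caudal list the highest, 0.24. Of its 12 genes, 3 were lower in all Del#3 than in all EVX1-Δfs libraries, where 1.8% of all genes tested were. They were *Zfp42* (REX1), *Nr0b1* (DAX1) and *Dppa3* (STELLA), of which *Nr0b1* and *Dppa3* are named after their values were seen. Other genes of the list had differences above 0, namely *Tbx3* (0.26) and *Tfcp2l1* (0.34). *Zfp42* differed by -0.82 on the log2 scale (standard error 0.28, unadjusted p = 0.0156, limma adjusted p = 1.00). With the replicate number in the model, 3 of the 12 had an unadjusted p-value under 0.05, where 4.62% of all genes tested did. Among genes of neurons and glia, *Stmn2* was at 142 RPM, *Tubb3* at 27.3 RPM and *Syp* at 14.3 RPM, while *Dcx*, *Elavl4* and *Gfap* did not pass the filter. The summed normalized counts of that list were 1851 to 2449 per EVX1-Δfs library and 1575 to 2356 per Del#3 library, so the groups overlapped. The sums also overlapped for mesoderm, the naive genes, and crest and placode. They lay apart for endoderm, with 5465 to 5730 in EVX1-Δfs and 4406 to 5343 in Del#3. For caudal cells they lay apart the other way, with 796 to 1057 in EVX1-Δfs and 1062 to 1216 in Del#3. Sums were not tested. Outside the naive list, 4 of 107 list genes tested (3.74%) did not overlap between the lines, where 3.51% of all genes tested did not. This share is near that of all genes, and of these 4 *Snap25* and *Tdgf1* were named after their values were seen. *Snap25*, a synaptic gene, and *Msx2* were higher in Del#3, by 1.17 and 0.33 on the log2 scale (unadjusted p = 0.0374 and 0.180). *Tdgf1*, which encodes the Nodal co-receptor, and *Sox17* were lower, with differences of -0.37 and -0.35 (unadjusted p = 0.130 and 0.150). The limma adjusted p was 1.00 for each.

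**Figure D5:**
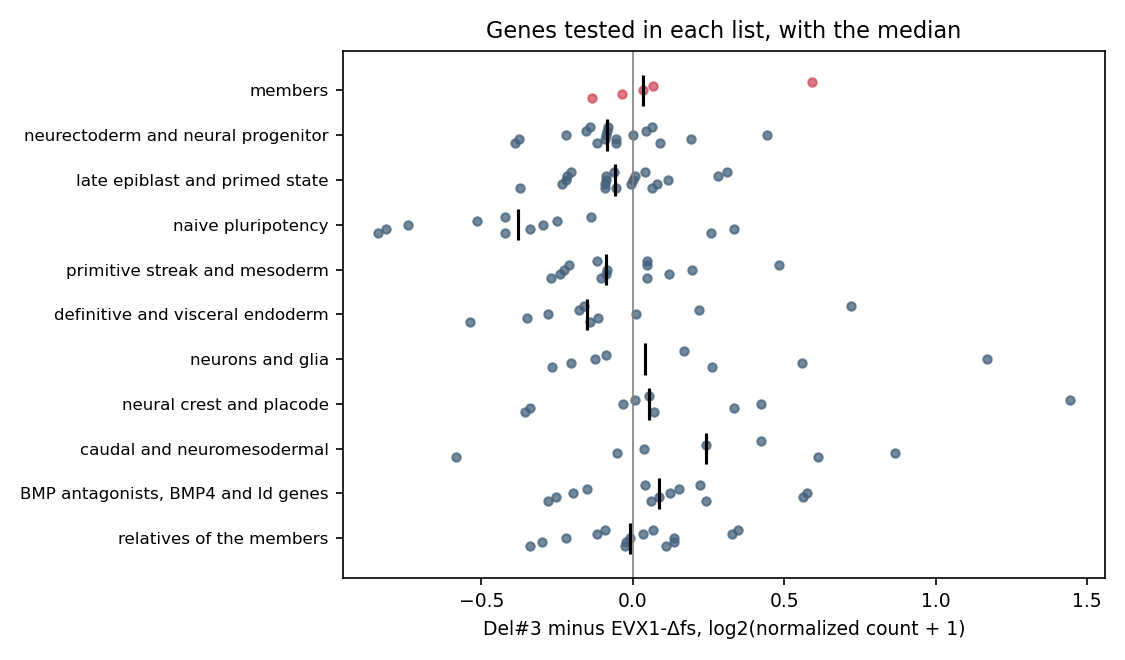
Difference between Del#3 and EVX1-Δfs on the log2(normalized count + 1) scale for each tested gene of the 8 members (red) and of the other gene lists, with a black bar at the median of each list. The median of the 5 tested members is 0.033, and those of the neurectoderm and late epiblast lists are -0.084 and -0.059. The naive list has the lowest, -0.38, and the caudal list the highest, 0.24.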

How the data were processed

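mRNA-seq libraries of D4 EBs were analysed, 3 of EVX1-Δfs and 3 of Del#3. According to the methods of the study, the authors aligned Ion Proton reads to mm9 (TopHat2, then TMAP), obtained gene counts from HTSeq and used DESeq2 on them, both at standard settings. The deposited signal values are counts divided by 1 size factor per library (0.846 to 1.52). Of these values, 100% were whole multiples of 1 step per library within 0.05, and the reads were recovered by dividing by that step. In the table, 2 rows share a symbol that had turned into a date, and both were kept.

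limma (version 3.58.1, R 4.3.3) was applied with trend to log2(normalized count + 1), without a covariate. Low genes were removed by filterByExpr (edgeR, version 4.0.16; minimum count 10, recovered reads), and Benjamini-Hochberg adjustment ran over all 12891 genes tested (threshold 0.05). Differences between the replicate days were tested by limma's F test in a model with line and replicate number. The design text of the series states that the replicates of both lines were differentiated next to each other, each on its own day, and the replicate numbers in the titles were taken to mark these days. Across genes their deviations from the line means correlated by 0.74, 0.32 and -0.053 for replicates 1 to 3.

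RPM used the reads on listed genes, and RPKM the longest GENCODE transcript on NCBIM37. For *Sox1* the RefSeq gene length of 4037 bases was used. Alternatives were edgeR's quasi-likelihood test, DESeq2 (version 1.42.0), the replicate block, pseudocounts of 0.1 and 5, other filters, TMM factors and leaving out each library. The methods were tested on simulated data. The members and gene lists were chosen with earlier results of these data known. Named genes were the members, *Evx1* and *Evx1as*, the 3 genes with the highest mean RPM in each list and any list gene past the threshold, and the 3 genes most like the members' mean profile. *T*, *Six3os1*, *Elp4*, genes of the lists that did not pass the filter and, after their values were seen, *Otx2*, *Irx3*, *Emx2*, *Nr0b1*, *Dppa3*, *Tfcp2l1*, *Snap25* and *Tdgf1* were named besides. Of the 3 ratios computed, 1 is not reported here.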

Additional observations from a re-analysis of the deposited data

How the results depend on the processing

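Between the lines, 0 of the tested members were called in each of 15 alternatives, and the count over all genes was 2 or 3. Of 75 refits of single members, 66 kept the direction, 0 passed the threshold, and adjusted p-values ranged from 0.992 to 1.00. The estimates near 0 changed sign in the other 9. *Zic5* was 0.0052 on the log2 scale with the replicate block in edgeR. With single libraries left out, the difference ranged from -0.25 to 0.18 for *Zic5*, with reversals at 0.18 without EVX1-Δfs replicate 2 and 0.17 without Del#3 replicate 2. It ranged from -0.11 to 0.22 for *Zic2*, with reversals at -0.0039 and -0.11 without EVX1-Δfs replicates 1 and 3 and at -0.039 without Del#3 replicate 1. It ranged from -0.26 to 0.32 for *Pou3f1*, with reversals at -0.26 without EVX1-Δfs replicate 1 and -0.17 without Del#3 replicate 2, and from -0.31 to 0.010 for *Nes*, which reversed at 0.010 without EVX1-Δfs replicate 2. *Sox3* stayed higher in Del#3 in all 15, from 0.35 to 0.93. With the replicate block in limma, 3 genes in place of 2 were called over all genes, and the block changed no call of a member. Between the replicate days, 546 genes were called, 334 with TMM factors, and 197 to 3175 with each library left out. The number of members called was 0, or 1 (*Pou3f1*) without EVX1-Δfs replicate 3 or without Del#3 replicate 3, so it ranged from 0 to 1. The cause was not tested. The log2 difference in the ratio of *Sox2* to *Sox3*, whose alternatives were added after seeing the data, was -0.94 to -0.70 without each library. Its direction could not change, since the lines do not overlap in this ratio. *Sox1*, *Pax6* and *Six3* had few reads, and their intervals between the lines are wide.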
